A study of Mus musculus with 6 samples.

Results

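Of the annexin family, 9 genes, Anxa1, Anxa2, Anxa3, Anxa4, Anxa5, Anxa6, Anxa7, Anxa11 and Anxa13, were compared here between liver tumors and normal liver of C3H mice. The rule for their probes used names and no measured value, although the members were chosen with earlier results of these data known. Every probe other than a control whose gene name on the array, or whose current symbol, was one of the 9 was taken, which gave 13 probes out of 55681 and 9 genes out of 34741. RNA was measured in 3 normal livers and in 3 liver tumors that had a Ha-ras mutation, all from male C3H/HeN mice, a strain prone to liver tumors. All of the mice were F2 offspring from the control arm of a project on arsenic exposure before birth, were fed a standard diet with tap water, and were 74 to 75 weeks old. Each RNA was read on a separate Agilent SurePrint G3 Mouse array in a single color, Cy3.

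Annexins are cytosolic proteins that bind acidic phospholipids of membranes when calcium rises. They share a conserved core of repeats that carries the calcium sites, while the N-terminal tail differs from member to member and is the part that S100 proteins and other partners bind. They are known for roles in membrane traffic, membrane repair, inflammation and clot dissolution. In liver, Anxa6 is known as an abundant hepatocyte protein, while Anxa2 is known to be scarce in resting hepatocytes.

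The expression value used throughout is the processed signal of a probe divided by the 75th percentile of its array, so that 1.0 is the signal of the spot at that percentile. A probe was tested when it was well above background, by the scanner software's own flag, on all 3 arrays of at least 1 group. A gene was called when limma's p, adjusted by Benjamini-Hochberg over all tested probes, was under 0.05. A gene with several probes was represented by its brightest, by the mean log2 signal of the 6 arrays. A log2 fold change is the mean log2 value of the tumors minus that of the normal livers. Signals of different probes are not comparable, so levels are compared between samples and not between genes.

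The 6 arrays had 44.7% to 48.9% of their spots well above background, and 0 spots were saturated. The 3 normal livers lay on one slide and the 3 tumors on another. Tissue and slide therefore cannot be told apart for any value given here. Local background, as an array's median, was 42 to 45 for the normal livers and 22 to 23 for the tumors. The labels do not say that each sample came from another animal, so the p-values measure the spread between these samples, which may in part be technical. In whole tissue, fewer cells of a type and less RNA per cell cannot be told apart.

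Before the values, the promoters of the 3 members that were called are shown, since these are the genes that moved. They are from RefSeq on GRCm38.p6 and hold 250 bases before and 50 bases from the annotated start, and 6 of the 9 members had an entry. Capitals mark matches, on either strand, to the AP-1 motif TGANTCA, the GC box GGGCGG, the TATA box TATAAA and the CRE motif TGACGTCA. Of 32841 promoters of the same length, 7.81% held the AP-1 letters, 35.7% the GC box, 13.6% the TATA letters and 1.79% the CRE letters.
Anxa2 promoter, GRCm38.p6 chr9:69453433-69453732, plus strand: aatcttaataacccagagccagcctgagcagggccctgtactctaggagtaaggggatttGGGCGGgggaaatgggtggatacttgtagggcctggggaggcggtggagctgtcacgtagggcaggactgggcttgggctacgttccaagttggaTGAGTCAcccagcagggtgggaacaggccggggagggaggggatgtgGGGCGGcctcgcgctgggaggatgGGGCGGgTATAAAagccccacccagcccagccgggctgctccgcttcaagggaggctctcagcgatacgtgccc
Anxa5 promoter, GRCm38.p6 chr3:36475838-36476137, minus strand: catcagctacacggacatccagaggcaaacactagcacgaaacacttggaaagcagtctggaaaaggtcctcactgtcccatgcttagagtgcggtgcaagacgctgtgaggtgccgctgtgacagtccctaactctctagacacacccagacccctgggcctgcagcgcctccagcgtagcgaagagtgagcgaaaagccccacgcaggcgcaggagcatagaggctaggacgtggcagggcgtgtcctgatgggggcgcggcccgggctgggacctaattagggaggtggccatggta
Anxa4 promoter, GRCm38.p6 chr6:86793535-86793834, minus strand: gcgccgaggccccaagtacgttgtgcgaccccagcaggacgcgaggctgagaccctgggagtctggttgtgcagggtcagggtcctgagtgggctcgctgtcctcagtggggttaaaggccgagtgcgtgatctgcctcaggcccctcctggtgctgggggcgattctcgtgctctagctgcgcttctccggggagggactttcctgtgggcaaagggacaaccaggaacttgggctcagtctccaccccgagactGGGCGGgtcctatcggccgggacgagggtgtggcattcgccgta

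In the Anxa2 promoter, the AP-1 letters began at -95, counted from the annotated start, GC boxes at -190, -48 and -24, and the TATA letters at -17, and none of these matches overlapped. The Anxa5 promoter held no match to any of the 4 motifs. The Anxa4 promoter had a GC box at position 7 after the start, and a second annotated start of Anxa4, at chr6:86775065-86775364, had no match. The promoters of Anxa2, Anxa5 and Anxa4 shown here were 63.7%, 60.3% and 65.3% G or C, against a median of 52.7% over all promoters. They held 13, 16 and 20 CpG, against a median of 7, and 62.1%, 67.0% and 73.5% of all promoters held fewer. The second Anxa4 start held 3 CpG. Of members that were not called, Anxa11 held 25 CpG, Anxa7 19 and 4 at its annotated starts, and Anxa1 3. Richness in CpG was therefore not particular to the called members. A match is a description of the letters and not a site shown to be bound. Of the other members, Anxa1 had TATA letters at -32, and Anxa11 had GC boxes at -53, -34 and -15. Anxa7 had GC boxes at -200, -71, -57 and -28 of one annotated start and at -8 of another.

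Of the probes, 4 are shown because a statement below rests on a dim signal from them. Their positions are those of the array's design on mm9. Exons and untranslated regions are not analysed here.
Anxa11 probe A_55_P2084820, mm9 chr14:26694168-26694227, plus strand: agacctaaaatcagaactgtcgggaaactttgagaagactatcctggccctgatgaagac
Anxa1 probe A_66_P120567, mm9 chr19:20449722-20449781, minus strand: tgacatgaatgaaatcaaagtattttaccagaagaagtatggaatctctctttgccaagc
Anxa3 probe A_55_P2056325, mm9 chr5:97253925-97253984, plus strand: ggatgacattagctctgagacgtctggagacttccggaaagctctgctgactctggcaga
Anxa13 probe A_52_P662711, mm9 chr15:58173475-58173534, minus strand: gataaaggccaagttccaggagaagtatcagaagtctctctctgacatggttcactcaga

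Of the 9 annexin genes, 3 were higher in the tumors, namely Anxa2, Anxa5 and Anxa4, and 0 were lower by limma. The other 6 were not called. At an unadjusted p under 0.05 limma had 1 member lower, Anxa11, which it did not call (limma adjusted p = 0.0597). The methods' t-test in its unpaired form did call Anxa11 (adjusted p = 0.0416). All 9 genes passed the filter on dim probes, 8 of them well above background on all 6 arrays, while Anxa13 passed through the tumors. By the same test 34.1% of the 18545 genes tested were called, 13.1% as higher and 21.0% as lower. With a change of 2-fold or more, Anxa2 and Anxa5 were called higher, against 7.78% of all genes, and 0 members lower, against 6.83%. The median log2 fold change of the 9 genes was 0.28, against -0.13 over all genes tested, and 7 of the 9 had a value above 0. Anxa8, called lower, and Anxa9, called higher, are not among the 9 and are described below. The groups did not overlap in 4 of the 9 genes, against 51.8% of all genes tested. The tumors lay above in 3 of these 4 and below in 1, while over all genes they lay above in 18.3% and below in 33.5%.

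**Figure D1:**
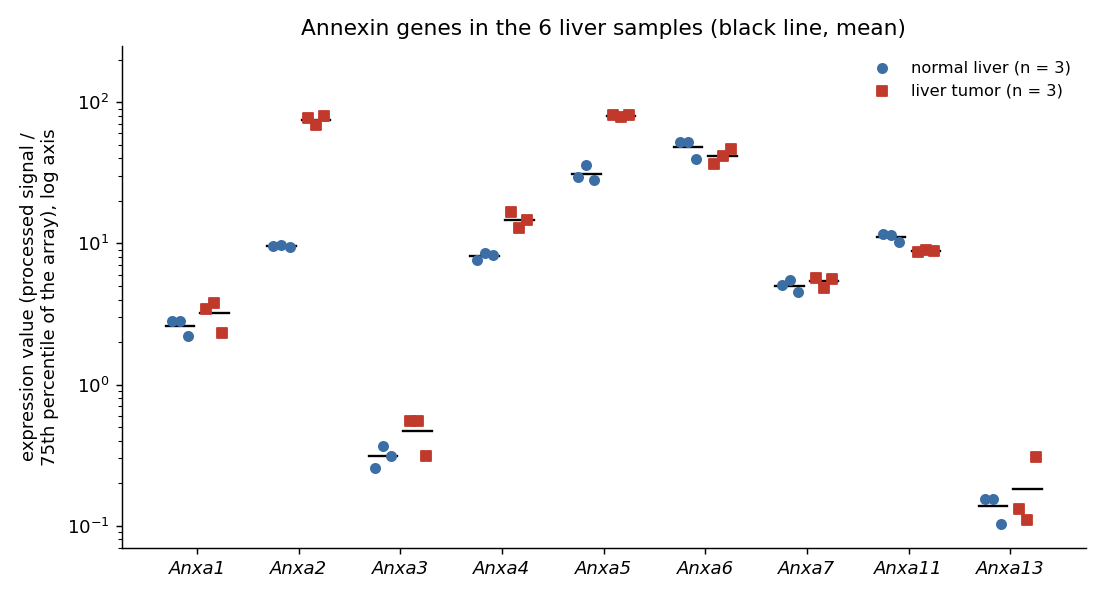
Expression value (processed signal over the 75th percentile of the array, log axis) of the 9 annexin genes in each of the 3 normal livers (blue circles) and 3 liver tumors (red squares), with the group mean as a black line. The tumors sit apart above the normal livers for Anxa2, Anxa4 and Anxa5 and apart below them for Anxa11, and the groups overlap for the other 5 genes.

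Anxa2 binds the S100 protein S100a10 and, at the cell surface, plasminogen and its activator. Its expression value was 9.61, 9.72 and 9.42 in normal livers 1, 2 and 3, and 76.6, 69.2 and 80.1 in tumors 1, 2 and 3. Every tumor stood far above every normal liver, and the samples of each group lay close together. The means were 9.58 ± 0.147 (SD, n = 3) and 75.3 ± 5.57 (SD, n = 3). Anxa2 therefore rose 7.84-fold, a log2 fold change of 2.97 (standard error, SE, 0.11, limma adjusted p = 3.56e-05). Its probe, A_55_P2110713, lies on mm9 chr9:69339532-69339591, plus strand.

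Anxa5 binds phosphatidylserine, and labelled Anxa5 protein is the usual stain for dying cells that expose this lipid. The expression value was 29.3, 35.8 and 28.0 in the normal livers and 80.6, 78.0 and 81.6 in the tumors. The tumors were nearly alike and all lay above the highest normal liver, which was normal liver 2. The means were 31.0 ± 4.19 (SD, n = 3) and 80.1 ± 1.81 (SD, n = 3), a 2.60-fold rise or a log2 fold change of 1.38 (SE 0.13, limma adjusted p = 0.00100). Its probe, A_51_P426754, lies on mm9 chr3:36348065-36348124, minus strand.

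Anxa4 is an annexin of epithelial cells that is known to act in exocytosis. It read 7.68, 8.56 and 8.34 in the normal livers and 16.7, 12.8 and 14.7 in the tumors. All 3 tumors were above all 3 normal livers, with tumor 1 highest and tumor 2 lowest among them. The means of 8.19 ± 0.459 (SD, n = 3) and 14.7 ± 1.91 (SD, n = 3) gave a 1.79-fold rise, a log2 fold change of 0.84 (SE 0.13, limma adjusted p = 0.00568). This probe, A_55_P2092859, lies on mm9 chr6:86686883-86686942, minus strand. A second Anxa4 probe, A_55_P2132907, designed on another transcript, did not exceed background well on any of the 6 arrays and was not tested.

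An exact permutation test on each of these 3 genes could go no lower than a two-sided p = 0.1 with 3 samples a group, and gave that value for all of them. With any 1 array left out, each of the 3 stayed called, with log2 fold changes of 2.93 to 3.03 for Anxa2, 1.31 to 1.48 for Anxa5 and 0.75 to 0.94 for Anxa4. By the criteria of the study's methods, which ask for a 2-fold change of the mean, a mean above 1.0 in either group and an unadjusted p under 0.05 in the methods' t-test, taken here in its unpaired form, Anxa2 and Anxa5 had risen and Anxa4 had not. The methods name the paired form for 2 groups, in which the unadjusted p of Anxa2 and Anxa5 was 0.00251 and 0.00494 and the adjusted p 0.102 and 0.105. The same criteria were met in that direction by 4.67% of 18537 genes.

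**Figure D2:**
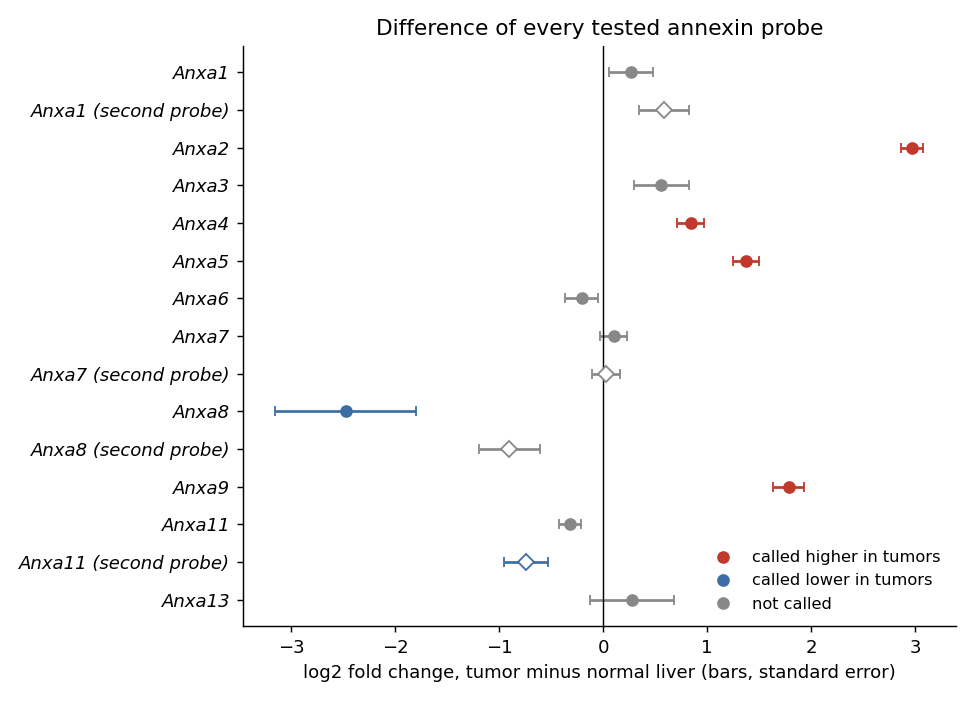
Log2 fold change, tumor minus normal liver, of every tested probe of the 9 genes and of Anxa8 and Anxa9, with the standard error as bars (open diamonds, probes other than the brightest of a gene). Anxa2 at 2.97, Anxa9 at 1.78, Anxa5 at 1.38 and Anxa4 at 0.84 were called higher (red), Anxa8 at -2.47 and the second Anxa11 probe at -0.74 were called lower (blue), and the others were not called (grey).

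Anxa11 has a long tail that binds Pdcd6 and is known to tether RNA granules to lysosomes. Its brighter probe read 11.6, 11.4 and 10.2 in the normal livers and 8.76, 9.03 and 8.82 in the tumors. The tumors lay below every normal liver, but the difference was small, with a log2 fold change of -0.32 (SE 0.11), and it was not called (limma adjusted p = 0.0597). The second probe, A_55_P2084820, whose sequence is shown above, was dim. It read 0.376, 0.267 and 0.286 in the normal livers and 0.196, 0.221 and 0.141 in the tumors, again without overlap. That probe was called lower, at -0.74 (SE 0.21, limma adjusted p = 0.0394). Both probes pointed the same way, but the call of the dim one held in 1 of 6 fits with an array left out.

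Anxa1 is an anti-inflammatory protein that acts through formyl peptide receptors. It read 2.81, 2.83 and 2.19 in the normal livers and 3.45, 3.79 and 2.33 in the tumors. Tumor 3 lay within the range of the normal livers and the other two tumors above it, and the gene was not called, at a log2 fold change of 0.27 (SE 0.21, limma adjusted p = 0.375). The dimmer Anxa1 probe gave 0.59 (SE 0.24, limma adjusted p = 0.105).

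Anxa3 is known as an abundant protein of neutrophils. Its single probe read 0.258, 0.368 and 0.312 in the normal livers and 0.553, 0.555 and 0.310 in the tumors. Tumors 1 and 2 were alike and above all normal livers, while tumor 3 was level with normal liver 3. The log2 fold change was 0.56 (SE 0.26, limma adjusted p = 0.149), and without tumor 3 it was 0.84, which limma called (adjusted p = 0.0231). With normexp background correction it was 0.18 (limma adjusted p = 0.377).

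Anxa6, whose core of repeats is duplicated, is known to act in cholesterol traffic through late endosomes. It read 51.9, 52.3 and 39.9 in the normal livers and 36.7, 41.6 and 46.2 in the tumors. The groups overlapped, and the log2 fold change of -0.20 (SE 0.16, limma adjusted p = 0.356) turned to 0.0026 under quantile normalization. Its direction is therefore not settled.

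Anxa7, which promotes the fusion of secretory vesicles, read 5.05, 5.50 and 4.51 in the normal livers and 5.72, 4.82 and 5.63 in the tumors. The groups overlapped, and its probes gave log2 fold changes of 0.10 and 0.03 (SE 0.13 and 0.13, limma adjusted p = 0.579 and 0.891).

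Anxa13 is an annexin of gut and kidney epithelium and is anchored to membranes by a fatty acid. Its probe was near background, and was well above it in 1 of 3 normal livers and in 3 of 3 tumors. It read 0.155, 0.154 and 0.103 in the normal livers and 0.130, 0.109 and 0.308 in the tumors. Tumor 3 was the highest sample and the other two tumors were within the range of the normal livers. The log2 fold change of 0.28 (SE 0.40, limma adjusted p = 0.630) became -0.18 without tumor 3, so no direction can be given.

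The tumors differed among themselves in ways that were not shared by all members. Tumor 3 was the lowest tumor for Anxa1 and Anxa3 and the highest for Anxa2, Anxa5, Anxa6 and Anxa13. Among the normal livers, normal liver 3 was lowest for 7 of the 9 genes and normal liver 2 highest for 7 of the 9. Over all genes tested, normal liver 3 was lowest for 35.8% and normal liver 2 highest for 33.9%. The normal livers still differed little for Anxa2, whose values spanned 9.42 to 9.72.

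**Figure D3:**
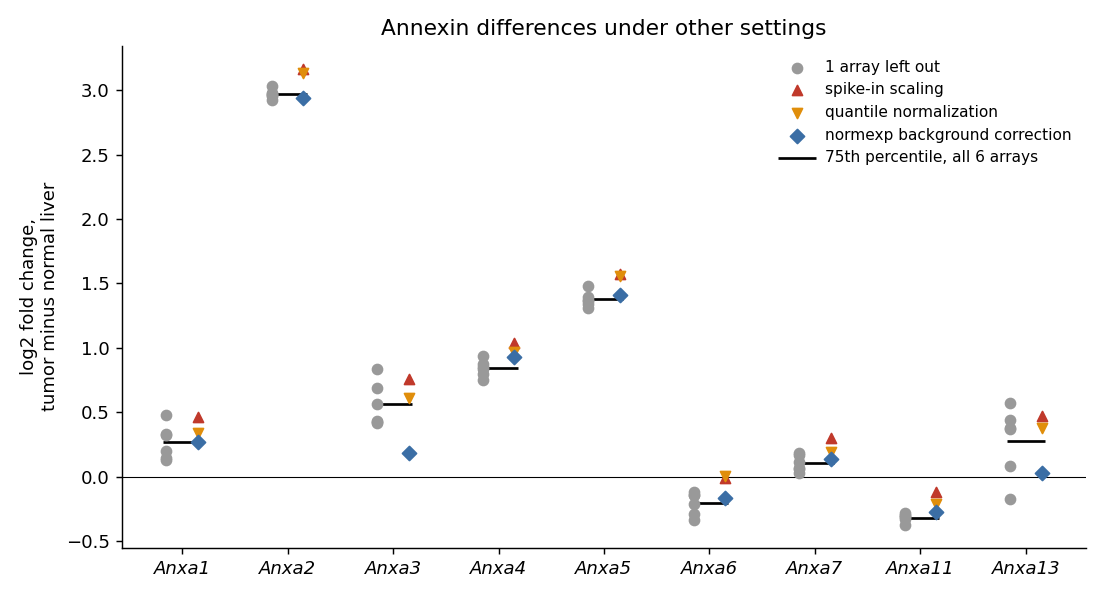
Log2 fold change, tumor minus normal liver, of the 9 annexin genes with all 6 arrays scaled to the 75th percentile (black line), with 1 array left out (grey circles), and with spike-in scaling, quantile normalization or normexp background correction (colored marks). Anxa2, Anxa4 and Anxa5 stay above 0 under all of these, while Anxa6 and Anxa13 have values on both sides of 0.

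Scaling the arrays by their spike-in controls, in place of the 75th percentile, moved the median of all tested probes up by 0.19 on the log2 scale. Under that scaling 7 of 9 annexin genes were still above 0, and under quantile normalization, where Anxa6 turned, 8 of 9 were. Anxa2, Anxa4 and Anxa5 were called under both, and the dimmer Anxa1 probe was called under spike-in scaling.

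The array also carried Anxa8, Anxa9 and Anxa10, which are not among the 9 genes. Anxa9, whose core has lost its calcium sites, read 0.384, 0.298 and 0.402 in the normal livers and 1.20, 1.32 and 1.19 in the tumors. All tumors were above all normal livers, and the gene rose by a log2 fold change of 1.78 (SE 0.15, limma adjusted p = 6.33e-04). Over 16 alternatives to the main settings the value was 1.04 to 1.98, and Anxa9 was called in 15. Anxa8, an annexin of stratified and lung epithelium, read 0.615, 0.838 and 1.03 in the normal livers and 0.0562, 0.134 and 0.410 in the tumors. It was called lower at -2.47 (SE 0.68, limma adjusted p = 0.0336), although tumor 1 was not well above background and the call held in 2 of 6 fits with an array left out. The size of this fall is therefore uncertain, and it was -1.79 without tumor 1, -3.22 without tumor 3 and -1.08 with normexp. The second Anxa8 probe gave -0.90 (SE 0.29, limma adjusted p = 0.0561) and was not called. Anxa10, known from the stomach, did not rise well above background in any sample.

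Annexins act with partner proteins, and 34 partner genes in 4 lists are described here, of which 29 were tested. Among them 9 were higher in the tumors, 5 were lower and 15 were not called, beside the 13.1% and 21.0% of all genes given above. The median log2 fold change of the 29 genes was 0.20. The count of called partner genes, 14, fell to 9 without normal liver 2, normal liver 3 or tumor 2. Genes of these lists that were called with a change of 2-fold or more are named below, and the called genes with smaller changes were named after their values were seen.

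Of the 4 S100 genes whose proteins bind annexin tails, 2 were higher and 0 were lower by limma. At an unadjusted p under 0.05, limma had 3 higher and 0 lower. S100a11, a partner of Anxa1, read 0.705, 0.617 and 0.382 in the normal livers and 3.94, 2.90 and 3.48 in the tumors. Every tumor was above every normal liver, a log2 fold change of 2.64 (SE 0.25, limma adjusted p = 0.00110). S100a6, a partner of Anxa11, was called at 0.57 (SE 0.15, limma adjusted p = 0.0329), a call that was lost whichever array was left out.

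S100a10, the light chain of the Anxa2 complex, was chosen for description after its values were seen. It read 19.5, 23.4 and 13.7 in the normal livers and 6.07, 12.1 and 15.0 in the tumors. The tumors overlapped the normal livers and differed among themselves by more than 2-fold. The log2 fold change was -0.83 (SE 0.37, limma adjusted p = 0.127), so the rise of Anxa2 was not accompanied by a called change of S100a10. S100a4 gave 0.60 (SE 0.20, limma adjusted p = 0.0615) and was not called, although all tumors were above all normal livers.

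Of the 12 genes of the plasmin system and other annexin ligands, 11 were tested, and 3 were higher and 3 lower. Ahnak, named after its values were seen, was not called by its brightest probe, at -0.13 (SE 0.22, limma adjusted p = 0.675). Dimmer probes gave 0.62 (SE 0.19, limma adjusted p = 0.0434) and 0.85 (SE 0.25, limma adjusted p = 0.0431), both called higher. Each of these calls held in 1 of 6 fits with an array left out. The probe at 0.85 was well above background in 1 of 3 normal livers and 3 of 3 tumors, so it was tested through the tumors. Among 15 alternatives to the main settings it was called in 4, and not under normexp, with values of 0.14 to 1.13. A further Ahnak probe gave 0.22 (SE 0.28) and was not called. The called probes were designed on a different transcript from this probe and the brightest. Plat, tissue plasminogen activator, was well above background in all tumors and in no normal liver, and so was tested through the tumors. The limma adjusted p of 6.54e-04, on which its call as higher rests, belongs to the fitted difference. That fit used normal signals that were not well above background. Only a bound can therefore be given for the size, and the tumors were at least 1.51-fold higher. This bound sets the tumors' mean against the dimmest signal that counted as well above background on each normal array, or the probe's own signal where higher. With normexp background correction Plat was not called. Plaur, the receptor of urokinase, read 0.194, 0.187 and 0.107 in the normal livers and 0.890, 0.520 and 0.410 in the tumors. It rose by a log2 fold change of 1.87 (SE 0.35, limma adjusted p = 0.00985), with 2 of 3 normal livers well above background. With normexp the value was 0.78, and the methods' t-test did not call Plaur after adjustment. Plau, urokinase itself, did not rise well above background in any sample.

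Plg, the gene of plasminogen, which hepatocytes make, read 423, 447 and 459 in the normal livers and 364, 353 and 338 in the tumors. The tumors were all lower, by a log2 fold change of -0.33 (SE 0.10, limma adjusted p = 0.0468). This call held in 0 of 6 fits with an array left out. It was also lost under normexp, quantile normalization and spike-in scaling, and without a filter on dim probes. A fit with the replicate number as a block (the replicate block) lost it too. The value under spike-in scaling was -0.14.

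Prkca, a protein kinase C bound by Anxa6, read 1.66, 1.76 and 1.24 in the normal livers and 7.09, 6.15 and 6.55 in the tumors. Its rise of 2.10 on the log2 scale (SE 0.16, limma adjusted p = 5.30e-04) stood beside 1.91 (SE 0.19) at a second probe. Rasa1, the Ras GTPase activating protein that Anxa6 binds, gave 0.02 (SE 0.11). Pla2g4a, the cytosolic phospholipase that Anxa1 and Anxa5 are known to inhibit, read 0.818, 0.934 and 0.856 in the normal livers and 0.459, 0.403 and 0.397 in the tumors. It was called lower at -1.05 (SE 0.12, limma adjusted p = 0.00188). Pdcd6, the calcium sensor bound by Anxa7 and Anxa11, was called lower at -0.47 (SE 0.12, limma adjusted p = 0.0296). The Pdcd6 call held in 1 of 6 fits with an array left out. It was lost under normexp, quantile normalization, spike-in scaling and the replicate block, and without a filter on dim probes. Fpr1 and Fpr2, receptors of Anxa1, were not called, and their groups overlapped.

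Of 9 genes that act with annexins in repair of the plasma membrane, 7 were tested and 1 was called. It was Capn2, a calpain protease, which was higher by a log2 fold change of 0.47 (SE 0.11, limma adjusted p = 0.0214). Its call held in 2 of 6 fits with an array left out and was lost under the replicate block and without a filter on dim probes. The other 6 were not called. The 7 values lay between 0.03 and 0.47 with a median of 0.22.

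Of 9 genes that move phosphatidylserine, the lipid bound by Anxa5, between the faces of the membrane, 7 were tested, and 3 were higher and 2 lower. The scramblase genes Plscr1 and Xkr8 were higher. Plscr1 read 5.64, 5.32 and 4.75 in the normal livers and 11.1, 11.1 and 13.2 in the tumors, with a log2 fold change of 1.17 (SE 0.13, limma adjusted p = 0.00183), and a second probe gave 1.80 (SE 0.12). Xkr8, which scrambles lipids in dying cells, was called at 0.68 (SE 0.16, limma adjusted p = 0.0199), but not without tumor 1 or without a filter on dim probes.

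The flippase genes, whose products return phosphatidylserine to the inner face, moved in both directions. Atp11a read 10.5, 10.2 and 7.35 in the normal livers and 2.51, 3.54 and 2.82 in the tumors, with a log2 fold change of -1.66 (SE 0.20, limma adjusted p = 0.00235), and its second probe gave -1.77 (SE 0.15). All tumors lay below all normal livers for this gene. Tmem30a, the subunit that the flippases need to leave the endoplasmic reticulum, was lower at -0.65 (SE 0.18, limma adjusted p = 0.0330). This call held in 1 of 6 fits with an array left out. It was lost under spike-in scaling, without a filter on dim probes and by the methods' t-test in its unpaired form. Atp8a1 went the other way, from 8.14, 6.83 and 8.96 in the normal livers to 45.3, 20.0 and 19.7 in the tumors. Tumor 1 was the highest of these, and the log2 fold change was 1.72 (SE 0.34, limma adjusted p = 0.0114). The methods' t-test in its unpaired form did not call Atp8a1 after adjustment.

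**Figure D4:**
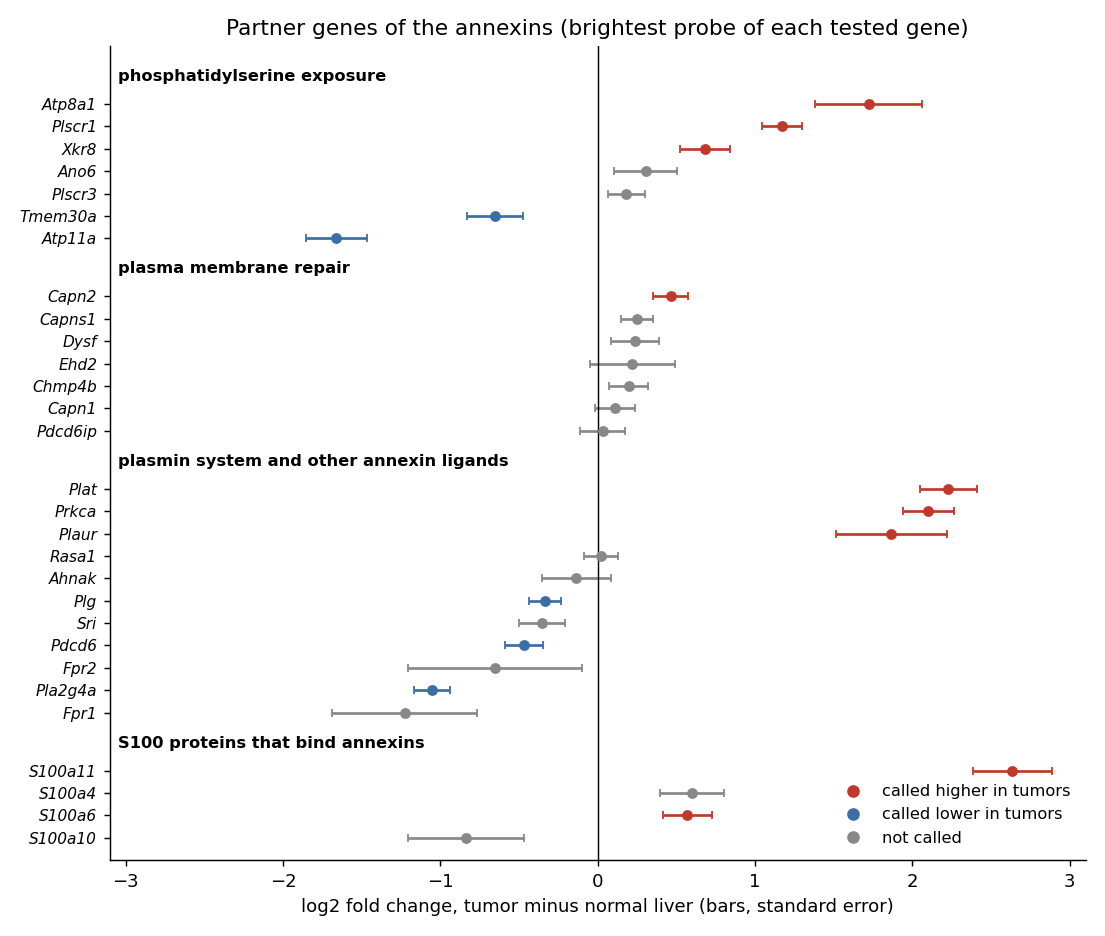
Log2 fold change, tumor minus normal liver, of the 29 tested partner genes in their 4 lists, each by its brightest probe, with the standard error as bars (red, called higher; blue, called lower; grey, not called). Of the called genes, S100a11, Prkca, Plaur, Atp8a1 and Plscr1 lie above 1 and Atp11a and Pla2g4a below -1, while the fitted value of Plat is not a bound, since in the normal livers that probe did not exceed background well.

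The pattern most like that of Anxa2 over the 6 arrays was sought among 16481 genes well above background on every array, as the smallest root mean square difference of log2 values after each gene's normal mean was subtracted. The closest were Bex3 with a difference of 0.12, Rhoc with 0.15 and Bco1 with 0.17. Bex3 is a small adaptor protein, Rhoc a GTPase that acts on the cytoskeleton, and Bco1 the enzyme that cleaves carotene to retinal. Their log2 fold changes were 2.89, 2.97 and 2.75 (SE 0.14, 0.16 and 0.12). These values describe likeness over these 6 arrays and nothing more.

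Marker genes of the cell types of liver were read beside the annexins. A sum given for a list adds the expression values of the brightest probe of each of its genes on the array. Of 9 hepatocyte markers on the array, 1 was higher and 1 lower, their summed expression value was 8831 to 9735 in the normal livers and 8929 to 9457 in the tumors, and Alb gave a log2 fold change of -0.06 (SE 0.13) and Hnf4a 0.16 (SE 0.14). Of 10 macrophage markers, 7 were lower, and all 10 log2 fold changes were below 0, and the sum was 118 to 188 in the normal livers and 58.2 to 89.6 in the tumors. Clec4f, the Kupffer cell lectin, was lower at -1.84 (SE 0.35, limma adjusted p = 0.0102), and Adgre1, a general macrophage marker, gave -1.12 (SE 0.40, limma adjusted p = 0.0717). Of the cholangiocyte markers, 7 were tested and 0 called by limma (1 at an unadjusted p under 0.05), with sums of 3.01 to 3.78 and 2.52 to 2.78, and Krt19 gave -0.63 (SE 0.38). Epcam was well above background in 1 of 3 samples of each group and Krt7 in 2 of 3. Of the neutrophil markers 5 were tested and 0 called by limma (1 at an unadjusted p under 0.05), with sums of 147 to 167 and 130.02 to 181. Most of that sum was the probe of Csf3r, at 151 on average in the normal livers and 151 in the tumors. Of the 5 log2 fold changes, 2 were above 0, S100a8 at 0.66 (SE 0.57) and S100a9 at 0.71 (SE 0.55), and 3 were below. S100a8 was highest in tumor 1. Of 10 markers of stellate cells and fibroblasts, 2 were higher, among them Col1a1, and 5 lower, with sums of 89.0 to 106 and 30.2 to 50.4. Most of that sum was the probe of Dcn, at 83.2 on average in the normal livers and 27.8 in the tumors. Of 8 endothelial markers 1 was higher and 3 lower, with sums of 105 to 119 and 81.0 to 89.8, and Pecam1 gave -0.01 (SE 0.10). Of the lymphocyte markers 4 were tested and 1, Cd4, was higher, with sums of 65.7 to 69.5 and 141 to 244. Most of that sum was the probe of Cd4 itself, at 59.5 on average in the normal livers and 184 in the tumors, and Cd3e gave 0.03 (SE 0.16). The part of these cell types in the annexin values was not tested.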

How the data were processed

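Total RNA of 3 normal livers and 3 liver tumors was measured on 6 single-color arrays of 62976 spots, and groups were taken from the sample labels. For each array the authors deposited the scanner software's processed signal intensity, background subtracted and spatially detrended. The authors also deposited these values as a ratio to the array's 75th percentile, which serves as an alternative here. The software was Feature Extraction, version 10.7.3.1 per the file headers and 12.0.3.1 in the submitters' processing notes.

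Each intensity was divided by the 75th percentile of its array, taken with controls included, and put on the log2 scale. Controls and outlier spots were then dropped and replicate spots averaged. Of 55681 probes, the 24901 that exceeded background well throughout 1 group or both were compared by limma 3.58.1 in R 4.3.3 (lmFit and eBayes, two-sided, Benjamini-Hochberg). The number of arrays limits the precision. Python 3.11.15, pandas 2.3.3 and numpy 2.4.6 made the tables. The fit was tested on simulated data. Probes were named through RefSeq annotation of GRCm38.p6 by accession (27235), symbol (3581) or synonym (565), and the design's name was kept for 24300.

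The members and lists were chosen with earlier results of these data known. Some genes of the partner lists are not reported here and are left out of the counts and the plot. Named are all members with every probe, Anxa8 to Anxa10, and partner genes called with groups apart and a change of 2-fold or more. The 3 genes most like the called member with the largest change, and a few markers, are named too. Alternatives were normexp with an offset of 50, quantile and spike-in scaling, no or a stricter filter, the ratio table, a replicate block, the mean over a gene's probes, a trend in eBayes, the methods' t-test unpaired and paired, and leaving out each array. Of the table's columns, 0 lacked a sample.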

Additional observations from a re-analysis of the deposited data

How the results depend on the processing

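Anxa2, Anxa4 and Anxa5 were each called in 16 of 17 alternatives, with log2 fold changes of 2.93 to 3.17, 0.75 to 1.04 and 1.31 to 1.57. The exception was the methods' t-test in its paired form (replicate block), which called 0 of the 9 annexin genes, 0 partner genes and 0 probes of the array after adjustment, against 4 annexin genes, 11 partner genes and 7419 probes at an unadjusted p under 0.05. Its adjusted p for Anxa2, Anxa4 and Anxa5 was 0.102, 0.156 and 0.105. Without 1 array, the count of called annexin genes was 3 to 4 and that of partner genes, 14 with all arrays, was 9 to 12, the lowest without normal liver 2, normal liver 3 or liver tumor 2. Without a filter on dim probes 9 partner genes were called.

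Anxa6 turned to 0.0026 under quantile normalization, and Anxa13 to -0.18 without liver tumor 3 (-0.18 to 0.57 with any 1 array left out), and the cause was not tested. Anxa3 was called without liver tumor 3 (limma adjusted p = 0.0231), and its value was lowest, at 0.18, with normexp. Anxa11 was called by eBayes with a trend (limma adjusted p = 0.0330), by the unpaired t-test of the methods and as the mean of its probes (log2 fold change -0.53). Its value shrank to -0.12 under spike-in scaling (limma adjusted p = 0.769) and to -0.21 under quantile normalization (limma adjusted p = 0.193). The call of its dimmer probe was lost under spike-in scaling, without a filter, with a trend and by the unpaired t-test.

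Over the array, 8239 probes were called, 37.8% of them higher. The count was 5155 with spike-in scaling, 64.3% of them higher, 4674 without a filter, where more probes were tested, 5261 by the unpaired t-test of the methods, and 4954 to 7171 with 1 array left out, the lowest without normal liver 2. With the replicate number as a block limma called 7021 probes and the same 3 annexin genes. Deviations of samples with the same number correlated at 0.07, 0.13 and 0.05. Samples of different numbers were not compared in this way, so these values cannot decide whether the numbers pair the samples. The labels state no pairing, and the main fit used none. A slide block could not be fitted, since 0 slides hold both groups. Signals near background limit Anxa3, Anxa13 and the dimmer probes of Anxa1 and Anxa11.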
